A study of Mus musculus with 4 samples.

Results

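The genes described here are 10 components and readouts of transforming growth factor beta (TGF-beta) signalling in B16F10 mouse melanoma cells: the ligand gene Tgfb1, the receptor genes Tgfbr1 and Tgfbr2, the signal transducer genes Smad2, Smad3 and Smad4, the inhibitor gene Smad7, the corepressor genes Ski and Skil, and the target gene Id1. They were taken by gene symbol as a set proposed with earlier results of these data in view, and all 10 were found among the 24421 symbols of the count matrix. Of these 10, 9 had enough reads to be tested, among 9150 tested genes in all, and Skil did not. The comparison was shLmna against shControl, with 2 libraries in each group. The shLmna cells stably carried a lentiviral short hairpin RNA against Lmna, the gene of lamins A and C, which form part of the meshwork under the nuclear membrane. The shControl cells carried the control vector, described in the methods as empty and in the labels as a control shRNA. Both lines came from the same C57BL/6 tumour line, were grown in serum-containing medium and were selected with puromycin after infection, so the viral backbone and the selection were shared by the groups. A single hairpin and its own infected population stood for the knockdown, so hairpin, infection and lamin loss cannot be told apart. RNA was read by bulk MARS-seq, a method that sequences only the 3′ ends of polyadenylated transcripts.

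In this pathway a TGF-beta dimer binds the type II receptor, encoded by Tgfbr2, which then phosphorylates the type I receptor, encoded by Tgfbr1. The type I receptor phosphorylates SMAD2 and SMAD3, which join SMAD4 and enter the nucleus to regulate transcription. SMAD7 blocks the receptor, and SKI and SNON, the protein of Skil, bind SMAD proteins at DNA and repress their targets. Bone morphogenetic proteins (BMPs) use related receptors with SMAD1, SMAD5 and SMAD9, and ID1, a helix-loop-helix protein without a DNA-binding domain, is a classical target of that branch whose gene also responds to TGF-beta. In melanoma the TGF-beta pathway is known for its links to invasion and to altered cell state.

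The libraries held between 2494880 and 3808843 counts over genes. At these depths 3 counts corresponded to 0.788 to 1.20 CPM (counts scaled to libraries of equal size), taken here as the detection floor. Lmna, the targeted gene, had 2826 and 2684 counts in the shControl libraries against 331 and 480 in shLmna, a log2 fold change of -2.61 (SE 0.142, adjusted p = 7.93e-06, edgeR quasi-likelihood test). The melanocyte lineage markers summed to between 20120 and 24600 CPM in every library, where 4 abundant pigment genes (Pmel, Dct, Tyrp1 and Mlana) made up most of the sum. Of the 6 tested, Pmel and Mlana were higher in shLmna and Sox10, a regulator of the lineage, was lower. Sox10 stood at 1713 ± 196 CPM in shControl and 922 ± 112 CPM in shLmna (SD, n = 2), which is -0.89 on the log2 scale (adjusted p = 0.00161). Mitf was lower in both shLmna libraries but did not pass (log2 fold change -0.37, adjusted p = 0.0804). Dct and Tyrp1 did not pass, and their groups overlapped. The part of these marker shifts in the values below was not tested. Tyr, the tyrosinase gene that defines pigment cells, was nearly absent from the counts, at 1 and 1 in shControl libraries and 3 and 7 in shLmna. The last 1000 bases of Tyr hold 27.5% G and C, and whether this lowered its counts was not tested. Of 15 markers of immune, endothelial, mesenchymal, epithelial and hepatic cells, 9 had no count in any library. The 15 summed to 28.5 and 28.65 CPM in shControl and 19.8 and 18.8 CPM in shLmna. The 2 tested, Cd68 and Pdgfrb, did not pass. Krt8, an epithelial marker, had 16 and 9 counts in shControl against 0 and 1 in shLmna. Its groups did not overlap, but it had too few reads for the test. In bulk RNA, a smaller share of cells expressing a gene and less of its RNA per cell cannot be told apart. Whether separate cultures gave the 2 libraries in each group is not stated, so the p-values measure the spread between libraries, which may be technical.

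Among the 9 tested genes, Id1 and Tgfbr1 rose in shLmna and none fell, where a gene passed at an adjusted p under 0.05 over all tested genes. Over all 9150 tested genes, 15.2% passed in either direction, 5.48% as higher and 9.74% as lower. Before adjustment 3 of the 9 had p under 0.05, Smad7 being the third, beside 30.1% of all tested genes. DESeq2 called Id1 and Tgfbr1 higher and none lower. The median log2 fold change was -0.0075 over the 9 tested genes and -0.0011 over all tested genes. The study set 3 limits on DESeq2 results, which add an absolute log2 fold change over 1 and a mean normalized count over 5. Applied here to the edgeR fit, they left Id1 alone among the 10 genes, at a log2 fold change of 1.04. Beside it, 1.76% of all tested genes were called higher by these limits. Both shLmna libraries lay above both shControl libraries for 4 of the 9 (Id1, Tgfbr1, Smad7 and Smad2), as they did for 29.5% of all tested genes. Both lay below for Smad4 alone, as for 30.6% of all tested genes.

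**Figure D1:**
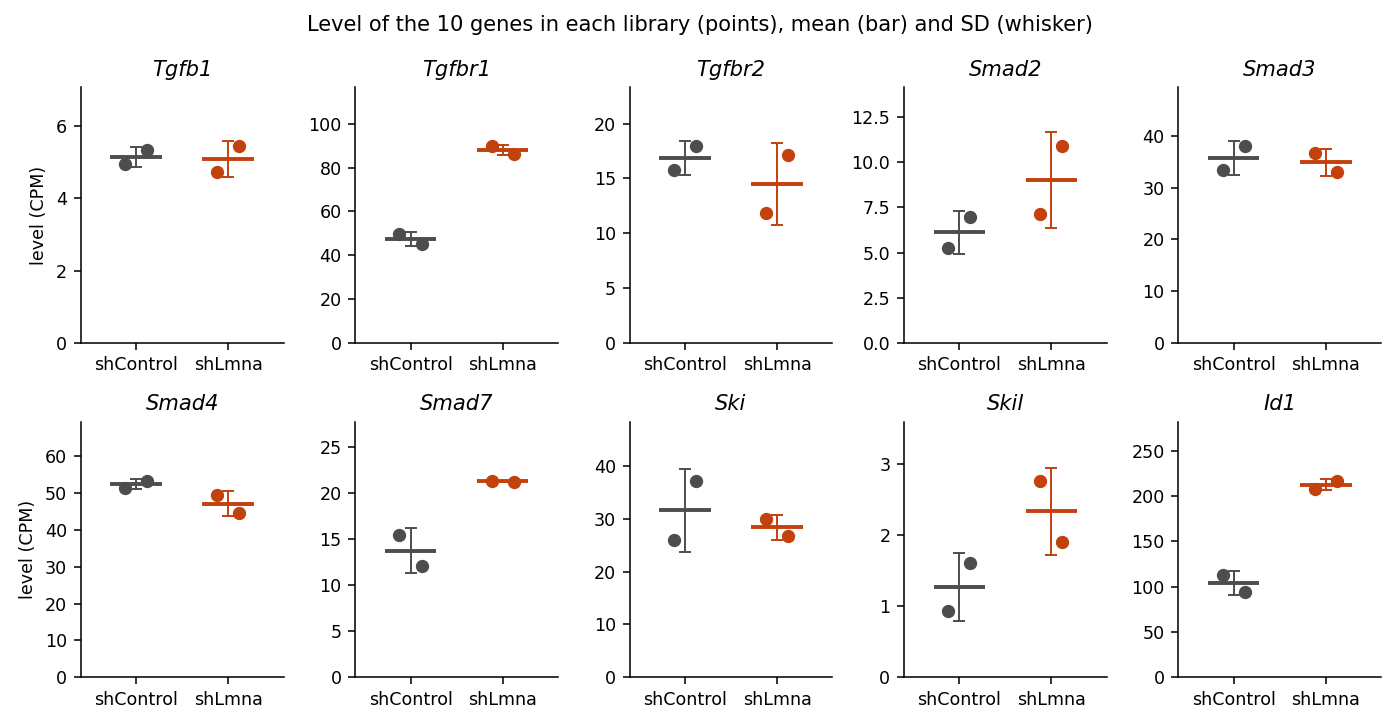
Level of each of the 10 genes, 1 panel a gene, in CPM on a linear axis from 0, with 1 point for each of the 2 shControl (grey) and 2 shLmna (orange) libraries, a bar at the group mean and a whisker of 1 SD. The points of Tgfbr1 and Id1 stand apart by group with little spread within it, whereas those of Tgfb1, Tgfbr2, Smad3 and Ski overlap.

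The ligand gene Tgfb1 (chromosome 7, 25687002 to 25705077, plus strand, mm10) was near the bottom of the tested range. Its counts were 16 and 20 in the shControl libraries against 12 and 20 in shLmna. Tgfb1 stood at 5.16 ± 0.282 CPM in shControl and 5.10 ± 0.497 CPM in shLmna (SD, n = 2), so the groups overlapped. The fold change of Tgfb1 was 0.995, with a 95% interval of 0.555 to 1.78 (adjusted p = 0.991), which leaves room for a change of nearly 2-fold in either direction at this depth. Of the other 17 ligand genes of the superfamily that were listed, 11 had no count in any library and Tgfb3 was the only one with enough reads to be tested.

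Tgfb3, which encodes a second TGF-beta isoform present in these cells, had 33 and 46 counts in the shControl libraries against 12 and 21 in shLmna. Its log2 fold change was -1.09 (SE 0.319, adjusted p = 0.0466), and the groups did not overlap. With DESeq2 the adjusted p of Tgfb3 was 0.358, and it passed under 7 of 12 alternative settings. The 3′ end of Tgfb3 overlaps exons of Ttll5 on the opposite strand. Whether strand was used in the counting is not given in the sources used here, so reads of the 2 genes cannot be told apart. The same holds for Eng and Pmel, whose 3′ ends overlap exons of Fpgs and Dgka on the opposite strand.

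Of the receptor genes, Tgfbr1 rose and Tgfbr2 did not pass. Tgfbr1, encoding the type I receptor kinase that phosphorylates SMAD2 and SMAD3 (chromosome 4, 47353222 to 47414931, plus strand), had 160 and 168 counts in the shControl libraries against 227 and 317 in shLmna. These counts corresponded to 49.6 and 45.0 CPM in the shControl libraries and 89.8 and 86.4 CPM in shLmna, a gap several times the spread within either group. Tgfbr1 thus rose 1.86-fold (95% interval 1.49 to 2.32), with a log2 fold change of 0.90 (SE 0.143, adjusted p = 0.00269, edgeR). The call for Tgfbr1 held under all 12 alternative settings, with adjusted p-values of at most 0.0391. The last 1000 bases of its transcripts hold 35.1% G and C, and the log2 fold change was 1.14 (adjusted p = 0.00159) with the dependence on base composition removed.

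Tgfbr2, encoding the type II receptor that binds the ligand (chromosome 9, 116084293 to 116175360, minus strand), had 51 and 67 counts in the shControl libraries against 30 and 63 in shLmna. Its level was 16.9 ± 1.51 CPM in shControl and 14.5 ± 3.75 CPM in shLmna (SD, n = 2), and the groups overlapped. The fold change of Tgfbr2 was 0.872 (95% interval 0.583 to 1.31, adjusted p = 0.66). The 2 shLmna libraries were 11.9 and 17.2 CPM, so the direction of Tgfbr2 rested on the first: without it the log2 fold change was 0.03. Levels of different genes are compared here as 3′ tag counts, which do not scale with transcript length. The ratio of Tgfbr1 to Tgfbr2 counts was 3.14 and 2.51 in shControl and 7.57 and 5.03 in shLmna. The groups did not overlap, and the exact two-sided permutation test gave p = 0.333, the smallest that 2 against 2 libraries allow.

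Of the 12 other receptor and coreceptor genes of the superfamily, 5 were tested and 1 rose, beside 5.48% of all tested genes. The gene that rose was Bmpr1a, which encodes a type I BMP receptor. Bmpr1a had 49 and 56 counts in the shControl libraries against 74 and 93 in shLmna, a log2 fold change of 0.85 (SE 0.221, adjusted p = 0.0292). Its adjusted p was 0.191 with DESeq2, and 9 of 12 alternative settings kept the call. Acvr1, another type I receptor gene of the BMP branch, had a log2 fold change of 0.46 (adjusted p = 0.271). That of Eng, a coreceptor gene, was 0.16 (adjusted p = 0.497). The other tested receptor genes, Acvr2b and Acvrl1, stood at -0.22 and -0.20 (adjusted p = 0.64 and 0.66). Apart from Bmpr1a, these genes were picked out after their values were seen.

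**Figure D2:**
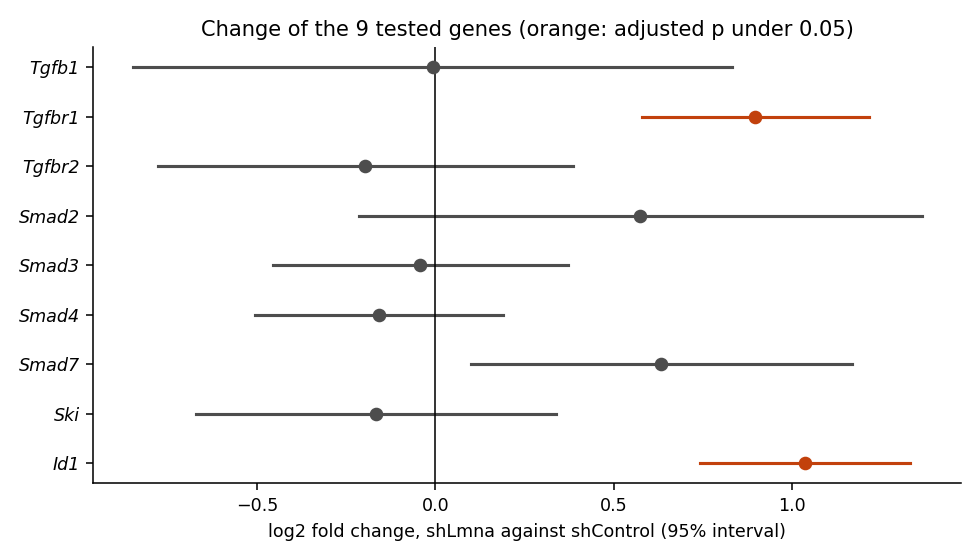
Log2 fold change of shLmna against shControl for the 9 tested genes, as a point with its 95% interval from the edgeR fit, where orange marks an adjusted p under 0.05. The intervals of Id1 and Tgfbr1 lie well above 0, that of Smad7 lies just above 0 without passing the test over all genes, and the other 6 cross 0.

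None of the receptor-activated or common SMAD genes passed the test. Smad3, which encodes a transducer of the TGF-beta signal (chromosome 9, 63646767 to 63757994, minus strand), had 108 and 142 counts in the shControl libraries against 93 and 121 in shLmna. Its fold change was 0.971 with a 95% interval of 0.729 to 1.29 (adjusted p = 0.911), and the groups overlapped. Smad4, encoding the partner that all receptor-activated SMADs share (chromosome 18, 73639009 to 73703780, minus strand), had 166 and 199 counts in the shControl libraries against 125 and 164 in shLmna. Smad4 levels were 51.4 and 53.3 CPM against 49.4 and 44.7 CPM, with a fold change of 0.896 (95% interval 0.704 to 1.14, adjusted p = 0.537). The intervals of Smad3 and Smad4 leave out a change of 1.5-fold in either direction.

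Smad2, whose protein acts beside SMAD3 (chromosome 18, 76241580 to 76310963, plus strand), was read about as thinly as Tgfb1. Its counts were 17 and 26 in the shControl libraries against 18 and 40 in shLmna, or 5.27 and 6.96 CPM against 7.12 and 10.9 CPM. The groups were apart by a narrow margin. The fold change of Smad2 was 1.49 with a wide 95% interval of 0.862 to 2.58 (adjusted p = 0.313).

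Smad7, the inhibitory SMAD that is itself induced by TGF-beta and BMP signals (chromosome 18, 75367529 to 75395935, plus strand), had 50 and 45 counts in the shControl libraries against 54 and 78 in shLmna. Levels of Smad7 were 15.5 and 12.0 CPM in shControl and 21.4 and 21.2 CPM in shLmna, with no overlap. The fold change was 1.55 (95% interval 1.07 to 2.25), with an unadjusted p of 0.0246 and an adjusted p of 0.106 over all tested genes, so Smad7 did not pass. It passed under 2 of 12 alternative settings: without the first shControl library (adjusted p = 0.0467) and on the log2 values from which the authors had removed batches (adjusted p = 0.0202).

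Of the 4 SMAD genes of the BMP branch, all tested, Smad6 alone rose, beside 5.48% of all tested genes. Smad6 encodes the inhibitory SMAD that acts mainly on BMP signals, and it had 107 and 120 counts in the shControl libraries against 145 and 215 in shLmna, or 33.1 and 32.1 CPM against 57.4 and 58.6 CPM. Its log2 fold change was 0.83 (SE 0.160, adjusted p = 0.00759). Smad6 kept its direction throughout, but its adjusted p was 0.0562 without the first shLmna library and 0.0805 without the second. The log2 fold changes of the transducer genes Smad1, Smad5 and Smad9 were 0.06, -0.13 and 1.09, with adjusted p-values of 0.931, 0.570 and 0.125.

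The corepressor genes did not pass or could not be tested. Ski (chromosome 4, 155154075 to 155222592, minus strand) had 84 and 139 counts in the shControl libraries against 76 and 98 in shLmna. Its level was 31.6 ± 7.92 CPM in shControl and 28.4 ± 2.38 CPM in shLmna (SD, n = 2), and both shLmna values lay between the shControl values. The fold change of Ski was 0.891 (95% interval 0.628 to 1.27, adjusted p = 0.67). Its log2 fold change ranged from -0.40 to 0.11 as single libraries were left out, turning positive without the second shControl library.

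Skil (chromosome 3, 31095058 to 31122577, plus strand) had 3 and 6 counts in the shControl libraries against 7 and 7 in shLmna, too few for the test. Summed over libraries, 9 counts stood against 14, a ratio of 1.75 after allowing for depth with an exact 95% counting interval of 0.704 to 4.58. A difference in Skil was not detectable at this depth. The last 1000 bases of Skil are 29.7% G and C, the lowest share among the 10 genes.

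Id1 (chromosome 2, 152736251 to 152737410, plus strand) was the most abundant of the 10 genes in 3′ tags and had the widest change. It had 365 and 352 counts in the shControl libraries against 526 and 795 in shLmna. In CPM these were 113.1 and 94.2 against 208 and 216.6, with a spread within groups that was small beside the gap. Id1 rose 2.05-fold (95% interval 1.67 to 2.52), with a log2 fold change of 1.04 (SE 0.132, adjusted p = 0.000732, edgeR). Under the 12 alternative settings the log2 fold change of Id1 lay between 0.51 and 1.18, and its adjusted p was at most 0.0249. The lowest came from the batch-corrected log2 values, on which Lmna itself stood at -1.54.

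Tested genes whose log2(CPM + 1) values followed those of Id1 most closely over the 4 libraries, each centred on its own mean, were Tns3, Gnptab and Psma4. Tns3 encodes a tensin of cell adhesions, Gnptab an enzyme that tags lysosomal proteins, and Psma4 a proteasome subunit. Their root mean square differences from Id1 were 0.0221, 0.0485 and 0.0582 log2 units. All 3 passed as higher, with log2 fold changes of 1.01, 0.95 and 1.09. Likeness over 4 libraries in 2 groups rests largely on the size of the difference between groups.

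Of 12 other genes listed as known to be induced by BMP signals, 5 had no count and 6 were tested. Id3, Smad6 and Atoh8 rose and none fell, beside 5.48% higher and 9.74% lower over all tested genes. The median log2 fold change of the 6 was 0.84, against -0.0011 over all tested genes, and all 6 values were positive. Like the other lists, this one was chosen with earlier results of these data known, so its counts only describe these data. Smad6 is also on the list of SMAD genes above. Both shLmna libraries lay above both shControl libraries for 5 of the 6, as they did for 29.5% of all tested genes. Id3, encoding a relative of ID1, had 2234 and 2741 counts in the shControl libraries against 3602 and 4940 in shLmna, or 713 ± 29.6 CPM against 1385 ± 55.6 CPM (SD, n = 2). Its log2 fold change was 0.96 (SE 0.111, adjusted p = 0.000407), and it passed under all 12 alternative settings. Atoh8, a basic helix-loop-helix factor gene, had 83 and 92 counts against 119 and 161, with a log2 fold change of 0.85 (SE 0.181, adjusted p = 0.0120, and 0.060 with DESeq2). When either shLmna library was left out, Id3 was the 1 target of the list that passed. Id1 itself was not on the list.

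**Figure D3:**
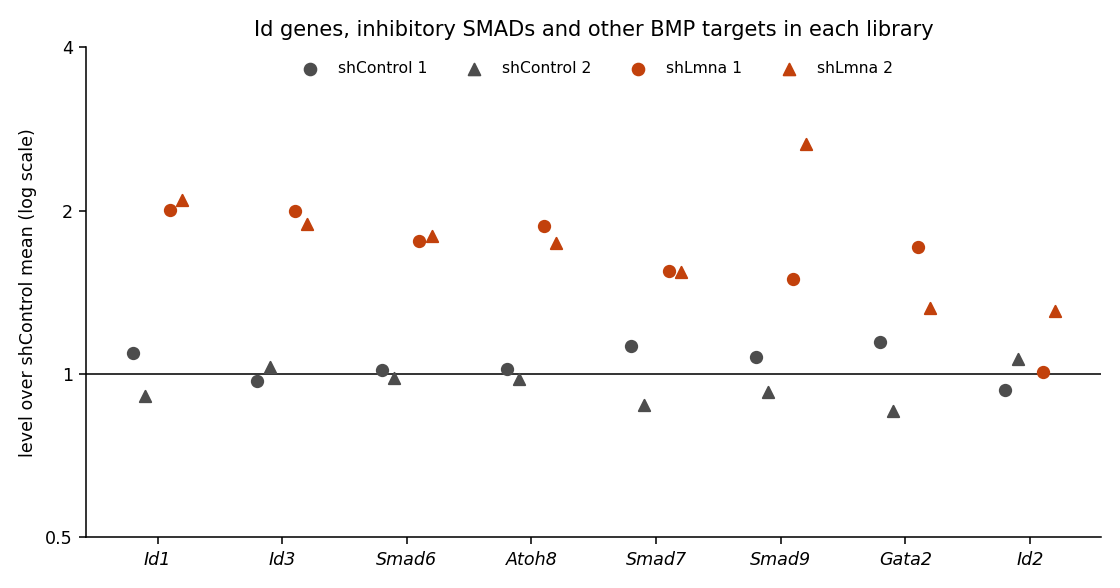
Level of Id1, Smad7 and the 6 tested BMP target genes in every library, as a ratio to the shControl mean of the same gene on a log axis, with grey points for the 2 shControl and orange points for the 2 shLmna libraries. Id1, Id3, Smad6 and Atoh8 lie near a ratio of 2 in both shLmna libraries with little spread, Smad9 and Gata2 spread more widely, and the values of Id2 overlap between the groups.

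Id2, a further family member picked out after its values were seen, had 2399 and 3162 counts in the shControl libraries against 2028 and 3812 in shLmna, with overlapping groups and a log2 fold change of 0.21 (adjusted p = 0.361). The ratio of Id1 to Id3 counts was 0.163 and 0.128 in shControl and 0.146 and 0.161 in shLmna, overlapping between the groups. The ratio of Id1 to Id2 was 0.152 and 0.111 in shControl and 0.259 and 0.209 in shLmna, without overlap. An exact permutation test of either ratio cannot go below p = 0.333 with 2 against 2 libraries. The gene of a BMP antagonist, Nog, rose as well, from 3 and 3 counts to 21 and 21 (adjusted p = 0.00565), a ratio of 7.86 in summed counts with a counting interval of 3.33 to 22.6. Nog was at the floor in shControl and entered the test through its shLmna counts, and its adjusted p was 0.0876 without the first shLmna library and 0.0619 without the second.

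The 250 bases before the start sites of both receptor genes, and of Id3 and Smad6, are shown because SMAD proteins bind short motifs at the promoters of their targets and these genes differ in their response. Sequences are from RefSeq on GRCm38.p6, written 5′ to 3′ on the strand of the gene, for Tgfbr1 (its upstream start site) and Id3 the plus strand and for Tgfbr2 and Smad6 the minus strand. Capitals mark CAGAC (the SMAD box), GTCTAGAC (its palindromic form) or GGCGCC (a GC-rich SMAD element), each searched on both strands, and none of these 3 contains another. Of 32851 promoter windows of this length, 42.2% held CAGAC, 0.167% GTCTAGAC and 9.59% GGCGCC.
Tgfbr1, chr4:47352972-47353221: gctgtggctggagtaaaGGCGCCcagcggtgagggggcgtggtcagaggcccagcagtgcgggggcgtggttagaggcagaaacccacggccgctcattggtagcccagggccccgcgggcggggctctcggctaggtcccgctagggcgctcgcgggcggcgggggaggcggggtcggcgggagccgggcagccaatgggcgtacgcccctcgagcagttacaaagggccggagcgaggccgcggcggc
Tgfbr2, chr9:116175364-116175613: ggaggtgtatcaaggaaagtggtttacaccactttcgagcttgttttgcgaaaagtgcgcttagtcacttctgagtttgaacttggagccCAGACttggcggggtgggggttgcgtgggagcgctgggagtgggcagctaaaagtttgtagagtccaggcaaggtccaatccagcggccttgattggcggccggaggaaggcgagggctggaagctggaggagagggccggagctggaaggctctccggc
Id3, chr4:136143572-136143821: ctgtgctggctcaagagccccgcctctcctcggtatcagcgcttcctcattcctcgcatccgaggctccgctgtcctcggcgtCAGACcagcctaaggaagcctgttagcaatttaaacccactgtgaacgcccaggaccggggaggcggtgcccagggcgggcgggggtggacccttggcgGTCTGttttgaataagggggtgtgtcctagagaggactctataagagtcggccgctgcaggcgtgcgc
Smad6, chr9:64022060-64022309: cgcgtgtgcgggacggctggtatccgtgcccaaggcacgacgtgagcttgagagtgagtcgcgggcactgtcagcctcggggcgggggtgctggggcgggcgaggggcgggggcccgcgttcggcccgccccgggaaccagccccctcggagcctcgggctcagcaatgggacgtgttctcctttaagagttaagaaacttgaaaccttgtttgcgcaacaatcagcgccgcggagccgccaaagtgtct

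The upstream Tgfbr1 window held 1 GGCGCC, and the window of a second Tgfbr1 start site, not shown, held 1 CAGAC. That of Tgfbr2 held 1 CAGAC, that of Id3 held 2 CAGAC, and that of Smad6 held none of the motifs. A match is only a match of letters, and with CAGAC in 42.2% of all windows its presence is common. Among the 10 genes, the RefSeq table matched Ski, Smad3, Tgfb1, Tgfbr1 and Tgfbr2. The windows of Tgfb1 and Smad3 held none of the motifs and that of Ski held 1 GGCGCC.

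Of 34 listed regulators and cofactors of the SMAD proteins, 25 were tested, 4 fell (Rnf111, Zeb2, Trim33 and Ep300) and none rose. Over all tested genes 9.74% fell and 5.48% rose. The median log2 fold change of the 25 was -0.14. Rnf111, encoding the ubiquitin ligase Arkadia that targets SKI, SNON and SMAD7, had 27 and 49 counts in the shControl libraries against 0 and 2 in shLmna. Its summed count ratio was 33.8-fold lower, with a counting interval of 9.05 to 284 (adjusted p = 0.00120). Zeb2, a zinc finger repressor gene whose protein binds SMADs, had 22 and 35 counts against 1 and 2 (16.9-fold lower, interval 5.50 to 84.4, adjusted p = 0.00155). Trim33, encoding a ligase that acts on SMAD4, had 16 and 12 counts against 0 and 1 (24.9-fold lower, interval 4.12 to 1019, adjusted p = 0.0106). Rnf111, Zeb2 and Trim33 were at the floor in shLmna and entered the test through their shControl counts. Their fold values are therefore uncertain, and the intervals cover counting error only, not the spread between libraries. Ep300, encoding the acetyltransferase p300, had 103 and 127 counts against 36 and 70, with a log2 fold change of -0.97 (SE 0.225, adjusted p = 0.0186).

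The 3′ ends of these 4 genes are poor in G and C, at 34.7% for Rnf111, 31% for Zeb2, 31.2% for Trim33 and 30.9% for Ep300, where the median over all tested genes was 46.9%. Of the 672 tested genes at 36% or less, 39.0% passed as lower in shLmna and 7.29% as higher, and their median log2 fold change was -0.57. With the dependence on base composition removed from each library, the log2 fold change of Ep300 was 0.14 (adjusted p = 0.731), of the opposite sign. The log2 fold changes of Rnf111, Zeb2 and Trim33 under that correction were -4.63, -2.91 and -3.45, with adjusted p-values of 0.00219, 0.0105 and 0.0591. Rnf111 and Zeb2 stayed lower under all 12 alternative settings and were the 2 of the list that passed as lower with DESeq2. Both were at the floor in shLmna and entered the test through their shControl counts. The settings share the same libraries, so they give no independent support. Tgfbr1, at 35.1%, lay in the same range of composition and rose, and Id1, at 55.2%, and Id3, at 56.1%, lay outside it. In the range above 50%, 3.32% of 3344 genes passed as higher and 6.88% as lower. The part of base composition in any of these changes was not tested.

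**Figure D4:**
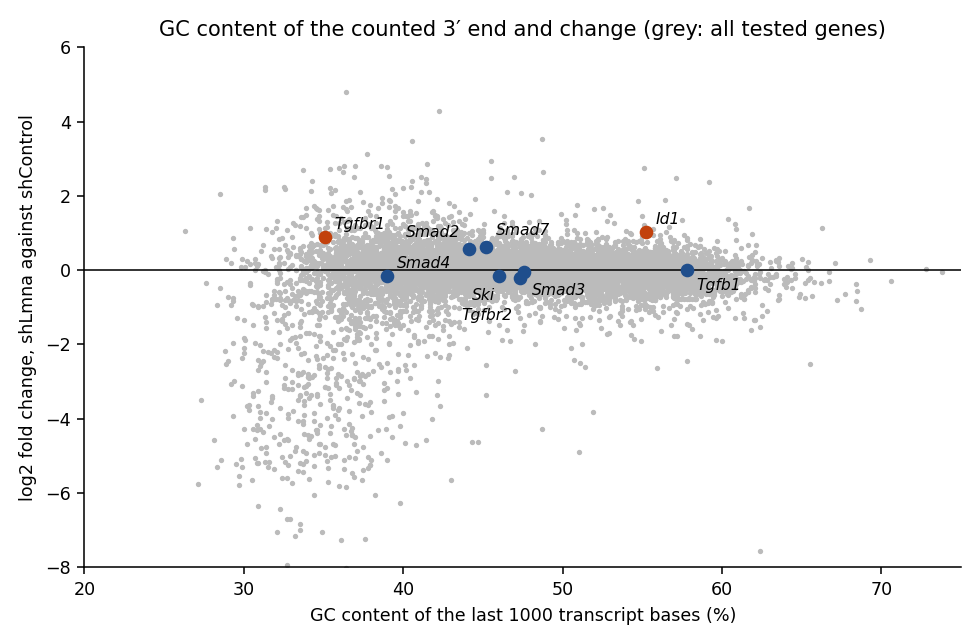
Log2 fold change of shLmna against shControl plotted against the G and C content (%) of the last 1000 bases of each tested gene, with 9093 genes as grey points, 6 outside the axes left out, and the 9 tested genes marked in blue, or in orange where the adjusted p was under 0.05. Many genes poor in G and C scatter far below 0, while Tgfbr1 lies above 0 at 35.1% and Id1 at 55.2%.

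Of 24 genes listed as known to be regulated by TGF-beta, 16 were tested, 1 fell and none rose. Over all tested genes 9.74% fell and 5.48% rose. The median log2 fold change of the 16 was -0.13. The gene that fell was Cdkn1a, which encodes the cell cycle inhibitor p21, with 974 and 1123 counts in the shControl libraries against 477 and 753 in shLmna and a log2 fold change of -0.61 (SE 0.120, adjusted p = 0.00853). Cdkn1a did not pass when either shLmna library was left out, and 7 of the 16 had an unadjusted p under 0.05, beside 30.1% of all tested genes. Among those picked out after their values were seen, Pmepa1 had 6 and 8 counts against 15 and 20 (log2 fold change 1.48, adjusted p = 0.0527) and Ctgf 14 and 14 against 30 and 26 (1.20, adjusted p = 0.0735), both with groups apart but short of the threshold. Snai2 stood at a log2 fold change of -1.42 (adjusted p = 0.0837) and Vegfa at -0.62 (adjusted p = 0.0925).

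**Figure D5:**
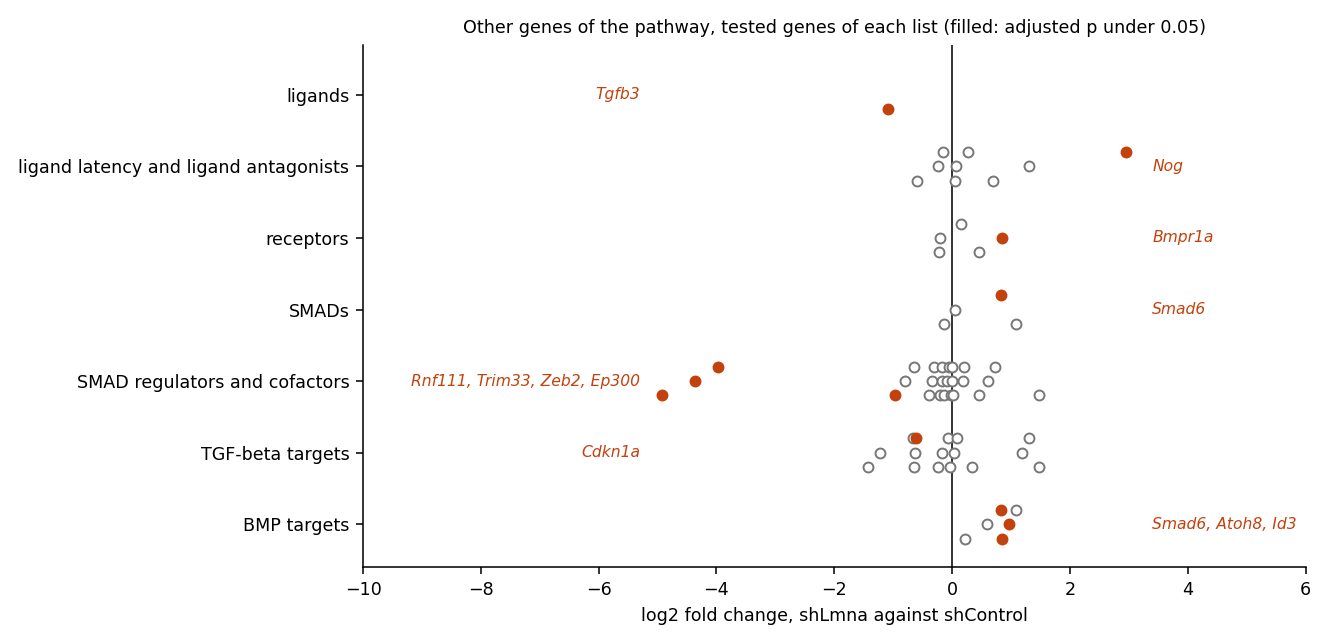
Log2 fold change of shLmna against shControl for each tested gene of the 7 pathway lists, where filled points have an adjusted p under 0.05 and carry their names. The 6 tested BMP targets all lie above 0, the regulators and cofactors that passed all lie below 0, and the TGF-beta targets spread to both sides.

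Over the 7 lists together, without the 10 genes, 113 genes were listed, 28 had no count in any library and 60 were tested. Of these 60, 6 fell and 5 rose, beside 9.74% lower and 5.48% higher over all tested genes, and their median log2 fold change was -0.02. Among those that fell, Rnf111, Zeb2 and Trim33 were at the floor in shLmna, and among those that rose, Nog was at the floor in shControl. Each entered the test through the group where it was higher. The ligand latency and antagonist list had 9 tested of 19, of which Nog alone passed.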

How the data were processed

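RNA of shControl and shLmna B16F10 cells was read by MARS-seq in 4 libraries. The authors mapped reads with STAR 2.4.2a to mm10 after Cutadapt trimming, and counted with HTSeq over the last 1000 bases of RefSeq genes and 100 bases downstream. Per the methods, molecular identifiers (UMIs) were counted after duplicates were marked. The deposited count matrix was used as it stands, and which deposited table holds the collapsed counts is not given in the sources used here. The authors also deposited a table of counts divided by size factors, a normalized signal, and log2 values after batch removal. Counts were recovered from the first table by rounding. Only low values were checked, and 100% of these were whole counts within a tolerance of 0.1. The recovered counts and the log2 values served as alternatives. The p-values, adjusted p-values, pass marks and directions of the authors' own comparison in that first table were not used. Recovered counts were fewer than matrix counts by a factor of 1.08 to 1.09.

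Counts were tested with edgeR 4.0.16 in R 4.3.3 (TMM, filterByExpr, quasi-likelihood F test, group as the sole term, two-sided), with Benjamini-Hochberg adjustment over 9150 genes. Standard errors are the log2 fold change over the square root of F, and intervals are 95%. The biological coefficient of variation was 0.126. CPM values use TMM library sizes, and intervals of summed counts are exact and cover counting error only. The replicates of each group differed by more than sampling noise (chi-square per degree of freedom 6.96 in shControl and 3.91 in shLmna). Alternatives were other scaling, no filter, recovered counts, a replicate block, a loess correction for G and C content (span 0.5), DESeq2 1.42.0, limma 3.58.1 on the log2 values, and leaving out each library. The named genes are Lmna, the 10 genes, every listed pathway gene that passed, and the 3 genes nearest to Id1, which was both the member with the widest change and the most abundant. Others are said to have been picked out later. The members and lists were chosen with earlier results of these data known. Positions and sequence come from the mm10 annotation and RefSeq.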

Additional observations from a re-analysis of the deposited data

How the results depend on the processing

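The calls for Id1 and Tgfbr1 held under every alternative run. Of 251 alternative values for 21 named genes, 213 kept direction and call, 24 lost the call, 3 gained it and 11 changed sign. Over all genes, 1992 were lower and 1784 higher on the batch-corrected log2 values, 236 higher with DESeq2 and 852 higher with the replicate block, and leaving out single libraries gave 414 to 1329 lower and 89 to 775 higher. Of the 10 genes, 4 were higher on the batch-corrected values and 1 by the study's limits. Of the listed pathway genes, DESeq2 called 3 lower and 3 higher, the batch-corrected values 13 and 16, and leaving out single libraries 2 to 6 and 1 to 8. The number higher was 8 without the filter, 8 with the G and C correction and 10 with the replicate block. Over all tested genes, same-numbered libraries did not deviate together (correlation across genes 0.0129). A single correlation over all genes, thinly read ones included, cannot settle whether the numbers mark a batch. Among the log2 fold changes that changed sign, that of Tgfb1 was 0.0242 by library totals, 0.0379 on recovered counts, 0.0895 with the G and C correction and 0.0009 on batch-corrected values, and -0.1061 to 0.0829 as libraries were left out. In the same way Smad3 ranged from -0.128 to 0.0539, Tgfbr2 from -0.494 to 0.0280 and Ski from -0.395 to 0.115. Ep300 stood at 0.14 with the G and C correction. The causes of these changes were not tested. At this depth Skil could not be tested, and Tgfb1 and Smad2 had wide intervals.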
